A study of Arabidopsis thaliana with 6 samples.

Results

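Tau-class glutathione S-transferases (GSTs) were described here in whole seedlings of Arabidopsis thaliana after fumigation with ozone. The genes were 7 named members of the class, GSTU16, GSTU18, GSTU20, GSTU22, GSTU25, GSTU26 and GSTU27, chosen by their symbols where 1 probe set of the Affymetrix ATH1 array names the gene and no other. Each gene had 1 such probe set among the 22810 on the array. RefSeq lists 28 tau-class genes in this genome. Probe sets that name 1 gene alone covered 11 of them, the 7 genes and 4 more. The latter, GSTU15, GSTU21, GSTU23 and GSTU28, were too dim to test. The remaining 17 were not analysed here, because no probe set names them alone in the annotation used.

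All seedlings were of the accession Col-0 (stock N1093), grown on 0.8% agar at 20 °C with 16 h of light and 8 h of dark and taken whole at developmental stage 1.04. The ozone group received 500 ppb ozone for 6 h in sealed chambers, and the control group received scrubbed air for the same time. RNA was taken directly after fumigation. Each group had 3 samples with 1 array each, and the values are MAS5 signals, a brightness per probe set on a linear scale. Median signals of the arrays lay between 41.7 and 49.5, and with so few arrays each value below is of limited precision.

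GSTs join the tripeptide glutathione to reactive or foreign compounds, which makes them more soluble and marks them for transport into the vacuole. The tau class is found in plants, is the largest GST class of Arabidopsis, and has a serine in its active site. Many of its genes lie side by side on the chromosomes, as copies that arose by duplication. Several are known to be induced by herbicides, oxylipins, salicylate or pathogens, and the class includes enzymes with roles outside detoxification, among them GSTU20, which binds the jasmonate-conjugating enzyme FIN219 in light signalling. Ozone breaks down in the leaf into reactive oxygen species, which oxidize lipids into compounds that GSTs can conjugate.

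Ozone was set against scrubbed air to ask how these transcripts respond, and the class did not move one way. GSTU25 rose 2.35-fold, and GSTU26, GSTU27 and GSTU20 fell, to 0.470, 0.579 and 0.639 of the control. GSTU22 (log2 fold change 0.74), GSTU18 (-0.52) and GSTU16 (0.32) stayed short of the threshold. The test was limma across 13648 probe sets, with a Benjamini-Hochberg adjusted p under 0.05 as the threshold. In that fit 4 of the 7 genes passed, 1 higher and 3 lower. Of all tested probe sets 28.0% passed, 13.0% as higher and 14.9% as lower, so calls were common on these arrays. The 7 genes were chosen with earlier results of these data known, so their counts are a description. The median log2 fold change was -0.52 over the 7 genes and -0.15 over all tested probe sets. In whole seedlings a lower signal from fewer cells of a type and from less RNA per cell cannot be told apart.

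**Figure D1:**
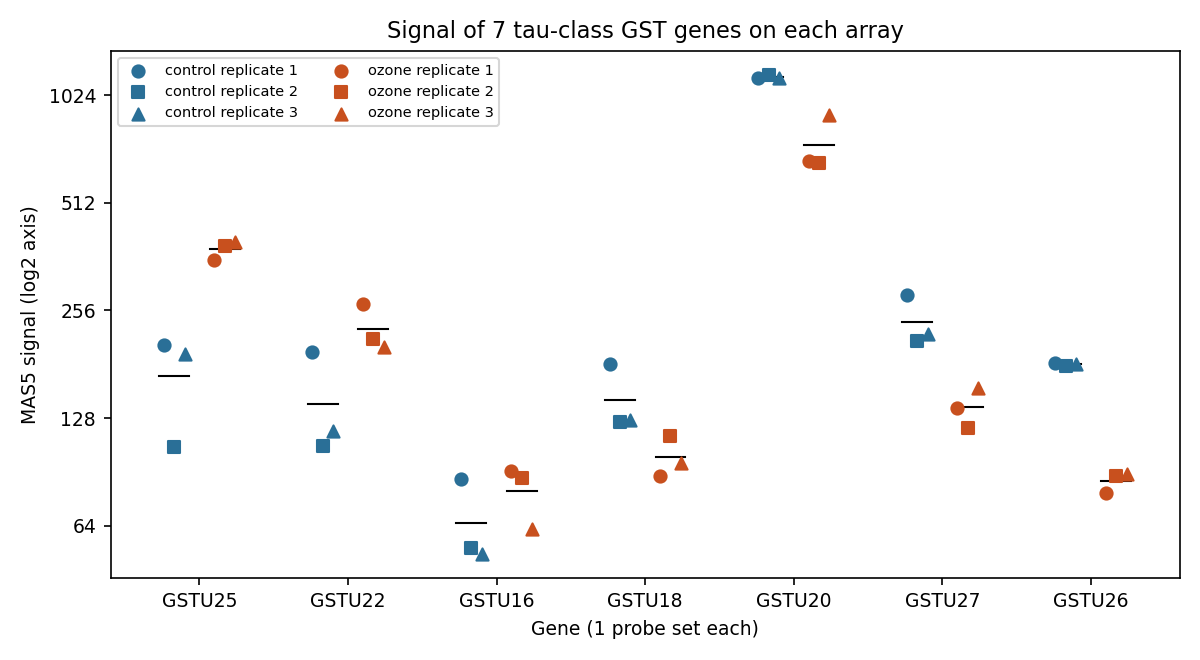
MAS5 signal (log2 axis) of the 7 GSTU genes on each of 6 arrays, 3 control (blue) and 3 ozone (orange), with a marker shape for each replicate number and a black line at each group mean. The ozone and control arrays of GSTU25 and GSTU26 lie well apart and in opposite directions, while those of GSTU16 overlap.

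GSTU25 (AT1G17180) is known as an enzyme that conjugates glutathione to the explosive trinitrotoluene and is induced by foreign compounds. Its signal was 354.7, 388.6 and 398.6 in ozone replicates 1, 2 and 3, and 205.1, 106.4 and 192.9 in control replicates 1, 2 and 3. The groups did not overlap, and the lowest ozone array was 1.73 times the highest control array. Ozone arrays were close to each other, with the highest 1.12 times the lowest, whereas control replicate 2 was far below the other controls, which stretched that group to a ratio of 1.93. The mean went from 168 ± 53.8 to 381 ± 23.0 (SD, n = 3 each), with a limma log2 fold change of 1.24 ± 0.254 (SE; adjusted p = 0.00966). The call held under all 18 alternative settings, including the one that left out control replicate 2, where the log2 fold change was 0.94 (limma adjusted p = 0.0145). The highest limma adjusted p among them was 0.0409, without ozone replicate 2. Of all tested probe sets 6.92% had a higher log2 fold change than GSTU25.

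GSTU26 (AT1G17190), the next gene on the chromosome, is known from studies of herbicide and cold responses. Its ozone signals were 78.8, 88.1 and 89.2, and its control signals were 182.9, 179.1 and 181.6, for replicates 1, 2 and 3. The groups were the furthest apart among the 7 genes, with the lowest control array 2.01 times the highest ozone array. The 3 control arrays lay within a ratio of 1.02. The mean went from 181 ± 1.93 to 85.4 ± 5.71 (SD, n = 3 each), with a limma log2 fold change of -1.09 ± 0.146 (SE; adjusted p = 0.00169). The call held under all 18 alternatives, with log2 fold changes between -1.12 and -0.72. Of all tested probe sets 4.81% had a lower log2 fold change.

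GSTU27 (AT3G43800), the only one of the 7 genes on chromosome 3, had ozone signals of 136.7, 120.2 and 155.3 and control signals of 282.8, 210.7 and 220.3 for replicates 1, 2 and 3. The groups did not overlap, and control replicate 1 was above the other controls. The mean went from 238 ± 39.2 to 137 ± 17.6 (SD, n = 3 each), with a limma log2 fold change of -0.79 ± 0.181 (SE; adjusted p = 0.0148). Without ozone replicate 2, its lowest array, the adjusted p from limma was 0.0597.

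GSTU20 (AT1G78370) had ozone signals of 671.8, 660.3 and 900.0 and control signals of 1146, 1168 and 1146 for replicates 1, 2 and 3. The control arrays lay within a ratio of 1.02, and ozone replicate 3 was nearer to them than the other ozone arrays. The mean went from 1153 ± 12.8 to 744 ± 135 (SD, n = 3 each), with a limma log2 fold change of -0.65 ± 0.170 (SE; adjusted p = 0.0250). The limma adjusted p was 0.0583 after quantile normalization and 0.0622 and 0.0989 without the first or the second ozone array. It was 0.0849 without control replicate 2 and 0.0864 without control replicate 3. The log2 fold change stayed between -0.79 and -0.56 under the 18 alternatives.

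The replicate numbers of the titles were read as pairing an ozone with a control array, since arrays with the same number deviated together from their group means. This rests mainly on replicate 1, because the arrays of replicates 2 and 3 went with each other's partners about as well. The signals of GSTU22 (AT1G78340) were 266.5, 212.4 and 202.3 with ozone and 195.9, 107.0 and 117.7 in the controls, for replicates 1, 2 and 3, so replicate 1 was the highest array of both groups. The groups did not overlap, but the lowest ozone array was only 1.03 times the highest control array. The mean was 140 ± 48.5 in the controls and 227 ± 34.5 with ozone (SD, n = 3 each), with a limma log2 fold change of 0.74 ± 0.250 (SE; adjusted p = 0.0612). With the replicate number as a block the adjusted p from limma was 0.00270, and the log2 differences within replicates 1, 2 and 3 were 0.44, 0.99 and 0.78. Without both arrays numbered 1 the log2 fold change was 0.89 (limma adjusted p = 0.00537), and without control replicate 1 alone it was 1.01 (limma adjusted p = 0.00873). The gene did not pass under 13 of the 18 alternatives, with a limma adjusted p of up to 0.189, without control replicate 2 (log2 fold change 0.57).

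The signals of GSTU18 (AT1G10360) were 88.1, 113.8 and 96.1 with ozone and 180.9, 125.1 and 126.3 in the controls, so control replicate 1 stood above the rest. The groups did not overlap, with the lowest control array 1.10 times the highest ozone array. Its limma log2 fold change was -0.52 ± 0.203 (SE; adjusted p = 0.0910), and the adjusted p was 0.0389 with the block. The log2 differences within replicates 1, 2 and 3 were -1.04, -0.14 and -0.39, and without both arrays numbered 1 the log2 fold change was -0.27.

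GSTU16 (AT1G59700) was the single gene of the 7 whose groups overlapped. Its signals were 90.9, 86.8 and 62.8 with ozone and 86.4, 55.3 and 53.4 in the controls. Its limma log2 fold change was 0.32 ± 0.251 (SE; adjusted p = 0.378, and 0.137 with the block), and it did not pass under any of the 18 alternatives. Across the 7 genes, 2 had all ozone arrays above all control arrays and 4 had them below, beside 18.2% and 27.5% of all tested probe sets (45.7% in either direction). With the block 2 of the 7 genes rose and 4 fell, where 19.1% of all tested probe sets were called higher and 30.0% lower (49.1% in all).

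**Figure D2:**
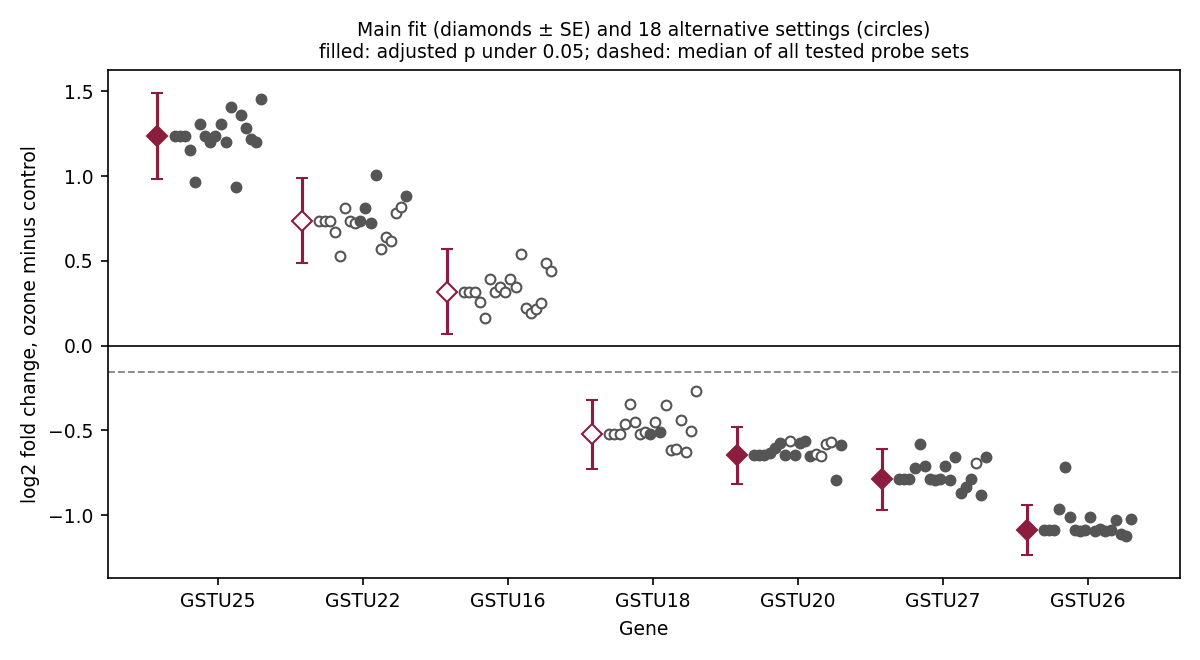
Log2 fold change (ozone minus control) of the 7 genes in the main limma fit (diamonds, with SE) and under 18 alternative settings (circles), filled where the adjusted p is under 0.05, with the median of all tested probe sets, -0.15, as a dashed line. No gene changes sign, and GSTU25 and GSTU26 are filled under every setting.

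Tau genes were then read by their place on the chromosome. Groups were defined by gene order in RefSeq, with at most 5 other genes between neighbouring tau genes, which puts the 28 genes into 12 groups. The 7 genes fall into 5 of these. GSTU25 and GSTU26 lie next to each other, after GSTU24, in 1 group of 3 on chromosome 1. GSTU22 and GSTU20 lie in a group of 5 on the same chromosome, in the order GSTU23, GSTU22, GSTU21, GSTU20 and GSTU19. GSTU18 neighbours GSTU17, GSTU16 shares a group with GSTU15, and GSTU27 has no tau neighbour. GSTU17, GSTU19 and GSTU24 were not analysed here.

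In both groups with a pair of the genes, one had a positive and the other a negative log2 fold change. A difference of log2 signals within an array is free of any factor that scales the whole array, so it was compared between ozone and control. For GSTU25 minus GSTU26 the difference was 2.17, 2.14 and 2.16 in ozone replicates 1, 2 and 3, and 0.17, -0.75 and 0.09 in the controls. The ozone arrays agreed closely, and control replicate 2 was again the array apart. The mean was 2.16 ± 0.0148 with ozone and -0.17 ± 0.508 in the controls (SD, n = 3 each), a shift of 2.32 on the log2 scale (exact permutation test, two-sided, p = 0.1).

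For GSTU22 minus GSTU20 the difference was -1.33, -1.64 and -2.15 with ozone and -2.55, -3.45 and -3.28 in the controls, for replicates 1, 2 and 3. All ozone arrays lay above all control arrays. The mean was -1.71 ± 0.414 with ozone and -3.09 ± 0.479 in the controls (SD, n = 3 each), a shift of 1.39 on the log2 scale (exact permutation test, two-sided, p = 0.1). Both pairs were tested, the adjusted p is 0.1 for each, and 0.1 is the smallest p that 3 against 3 arrays can give, so neither could pass 0.05. The shifts were larger than the spread between arrays of a group, and within replicates 1, 2 and 3 they were 2.01, 2.89 and 2.07 for the first pair and 1.22, 1.81 and 1.13 for the second. A shift describes unequal change within a pair on these arrays, which the exact test could not call.

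**Figure D3:**
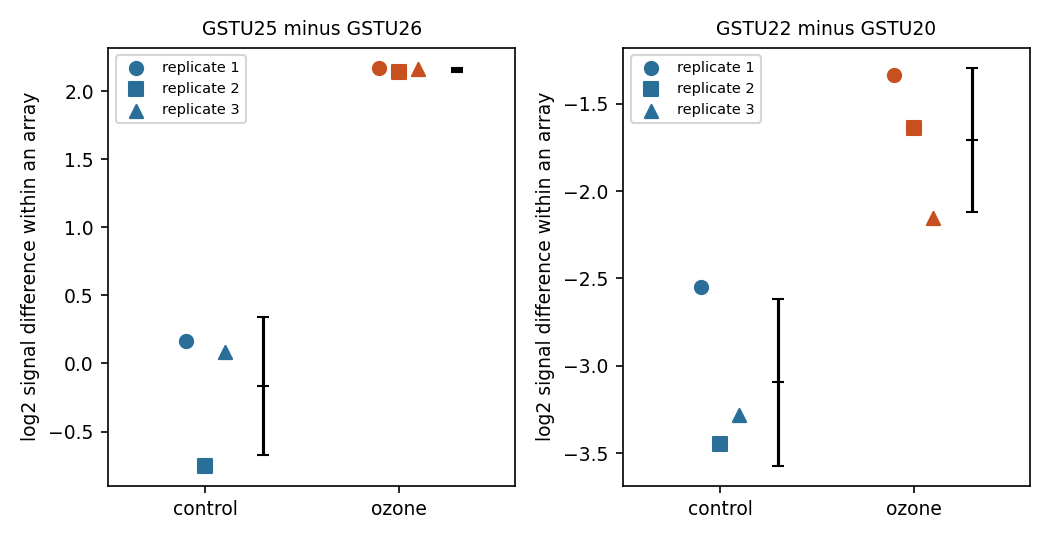
Difference of log2 signals within an array, GSTU25 minus GSTU26 (left) and GSTU22 minus GSTU20 (right), for 3 control (blue) and 3 ozone (orange) arrays with mean ± SD beside them. In both panels every ozone array lies above every control array, with mean shifts of 2.32 and 1.39.

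The genes around these groups, up to 5 on each side and any between, gave 11 that were tested, of which 2 rose and 1 fell. Of all tested probe sets 13.0% rose and 14.9% fell, so the neighbours did not stand out by this count. They were chosen by position. With the block 3 rose and 1 fell, beside 19.1% and 30.0% of all tested probe sets, and the added gene was CW14, before GSTU15 (log2 fold change 0.52, limma adjusted p = 0.0682, and 0.0292 with the block). FUG1, a translation initiation factor of the chloroplast, lies 3 genes after GSTU26 and also fell, from 834 ± 165 to 407 ± 83.2 (SD, n = 3 each; log2 fold change -1.04, limma adjusted p = 0.00992). On the other side of that group AT1G17160 (log2 fold change 0.35) and AT1G17145 (0.16) did not pass.

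Beside GSTU18, AT1G10340 rose from 30.0 ± 8.91 to 147 ± 39.0 (SD, n = 3 each; log2 fold change 2.29, limma adjusted p = 0.00119), while GSTU18 itself had a negative value. The control mean of AT1G10340 lay below the filter level, a signal of 31.2, so this neighbour was tested through its ozone arrays. Its place in the count of neighbours that rose is therefore a description. AT1G10350, which lies between them, had a log2 fold change of -0.28 and did not pass. Next to GSTU16, AT1G59710 rose by a log2 fold change of 0.79 (limma adjusted p = 0.0178). Its limma adjusted p was 0.0653, 0.0626 and 0.0516 without control replicate 2, ozone replicate 2 and ozone replicate 3. No neighbour of GSTU27 or of the group of GSTU20 and GSTU22 passed the filter on mean log2 signal. Among those left out was AT1G78410, 3 genes after GSTU19, with signals of 103.3, 82.3 and 78.7 with ozone and 1.6, 1.4 and 0.5 in the controls. In the fit without the filter it rose (log2 fold change 6.40, limma adjusted p = 0.000415), or by 2.59 with 16 added to every signal.

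**Figure D4:**
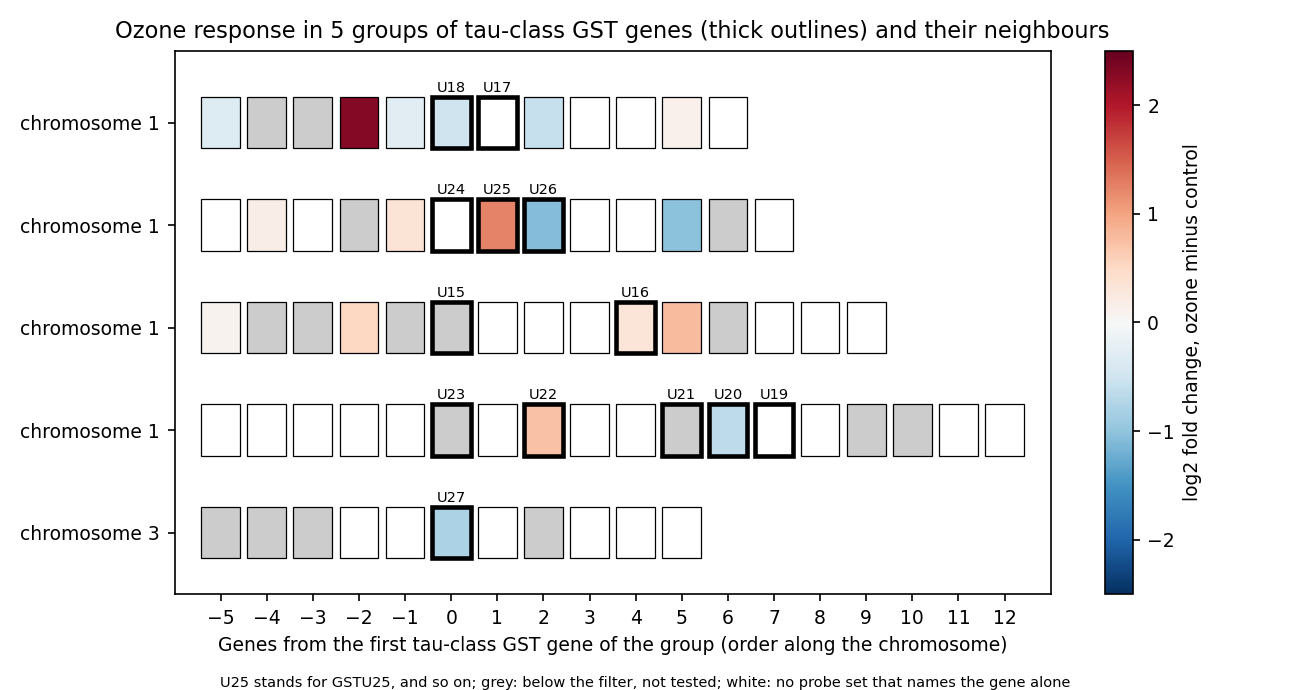
Log2 fold change (ozone minus control, colour) in gene order along the chromosome for the 5 groups of tau-class genes (thick outlines, U25 for GSTU25) and up to 5 genes on each side, with untested dim genes in grey and genes without a probe set of their own in white. Red GSTU25 at 1.24 stands next to blue GSTU26 at -1.09.

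The 4 dim tau genes had mean log2 signals below the filter level, a signal of 31.2, and were not tested in the main fit. GSTU15 had signals of 8.1, 10.4 and 7.5 with ozone and 6.3, 2.2 and 2.1 in the controls. GSTU21, between GSTU22 and GSTU20, had 3.3, 19.8 and 17.4 with ozone and 2.9, 6.8 and 5.0 in the controls, and the groups overlapped. GSTU23 had group means of 18.3 with ozone and 24.1 in the controls, and GSTU28 had 22.7 and 29.8. The groups did not overlap for GSTU15, which was higher with ozone, and for GSTU28, which was lower, as for 7.08% and 13.1% of all probe sets below the filter. In the fit without the filter, 0 of the 4 passed, with limma adjusted p from 0.107 to 0.478. Of all probe sets in that fit (22810 less 64 controls) 3726 passed, so a count of 0 among 4 is only a description. Their fold changes shrank where 16 was added to every signal, from 1.48 to 0.34 on the log2 scale for GSTU15 and from 1.18 to 0.45 for GSTU21.

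GSTs of other classes were nearly absent from the named probe sets: 3 of 26 had one, and 1 was tested. This was GSTL3 of the lambda class, whose enzymes reduce rather than conjugate. Its signal was 422.1, 364.0 and 367.4 with ozone and 524.0, 500.9 and 555.2 in the controls, a fall by 0.46 on the log2 scale (limma adjusted p = 0.0469). The call was lost under 8 of the 18 alternatives, among them centring each array on its median (limma adjusted p = 0.167) and leaving out any array except ozone replicate 1. The phi-class genes GSTF4 and GSTF13 were dim, with group means of 22.7 to 27.7, and overlapped.

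Genes that act with these enzymes were read from lists. The lists, also those of markers below, were chosen with earlier results of these data known, so counts over them are a description. Of the 23 genes of oxylipin and xenobiotic detoxification 3 were tested, and all 3 rose, beside 13.0% of all tested probe sets. AER, an alkenal reductase that removes reactive carbonyls formed from oxidized lipids, had signals of 729.1, 658.8 and 344.6 with ozone and 222.0, 182.5 and 123.3 in the controls, a 3.21-fold rise (limma adjusted p = 0.00753). The glycosyltransferase genes UGT73B4 and UGT73B5, which attach sugars to foreign and defence compounds, rose by log2 fold changes of 3.66 and 4.01, or 2.80 and 2.73 with 16 added to every signal. Their control means were a dim 17.3 and 9.90, so the folds are imprecise. All their control arrays lay below the filter level, a signal of 31.2, so both were tested only through their ozone arrays. The count of 3 that rose is therefore a description, and of the 3 only AER was above that level on every array. Ozone replicate 3 was the lowest ozone array for AER and UGT73B4, while for UGT73B5 replicate 1 was (123.9, against 125.8 in replicate 3). For GSTU25 ozone replicate 3 was the highest, but its ozone arrays lay within a ratio of 1.12.

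In the glutathione supply, 3 of 18 genes were tested and 0 passed, beside 28.0% of all tested probe sets. With the block 2 were called higher, beside 19.1% of all tested probe sets. The ATP sulfurylase gene APS3 had a mean of 199 ± 5.45 with ozone and 149 ± 6.65 in the controls (SD, n = 3 each; log2 fold change 0.41, limma adjusted p = 0.0589, and 0.0222 with the block). The sulfite reductase gene SIR had 0.56 (limma adjusted p = 0.240, and 0.00397 with the block), and the second ATP sulfurylase gene tested, APS4, had 0.17. Of 11 genes of glutathione reduction and peroxidases 2 were tested and 1 rose, beside 13.0% of all tested probe sets. This was GR1, the cytosolic glutathione reductase, with a log2 fold change of 1.44 (limma adjusted p = 0.00448). The plastid enzyme gene GR had -0.62 (limma adjusted p = 0.125, and 0.00365 with the block, where it fell). With the block 1 rose and 1 fell, beside 19.1% and 30.0% of all tested probe sets. The 21 genes of conjugate transport and turnover were not analysed here, since the annotation gave 0 of them a probe set of their own.

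The genes whose log2 signals ran closest to GSTU25 over the 6 arrays were IQD22, which encodes a calmodulin-binding protein, and AT2G04070, with Pearson r of 0.987 and 0.984. IQD22 had a mean of 64.8 ± 1.78 with ozone and 30.3 ± 6.22 in the controls (SD, n = 3 each). Control replicate 2 was the lowest of the 6 arrays for IQD22, as it was for GSTU25. Picking genes by likeness over these same arrays favours such a match. Closest to GSTU26 were AT4G12980 and AT1G23980, with r of 0.997 and 0.995. Ranked over 6 arrays that fall into 2 groups, these values mostly reflect the step between the groups and are a description. All control arrays of AT2G04070 and all ozone arrays of AT1G23980 lay below the filter level, a signal of 31.2. Both genes entered the ranking only through their brighter group. The control mean of IQD22 also lay below that level.

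Cell types were read from markers, since whole seedlings mix organs. Of 9 root markers 3 were tested and 1 fell: EXPA7 had a log2 fold change of -0.94 (limma adjusted p = 0.0101), while EXPA18 (-0.57) and PYK10 (-0.33) did not pass. All ozone arrays of EXPA7 and EXPA18 lay below the filter level, a signal of 31.2. Both were tested only through their control arrays, so these counts are a description. Of all tested probe sets 14.9% fell. With the block 2 of the 3 markers fell, beside 30.0% of all tested probe sets. The summed signal of the 3 ranged from 1857 to 2478 with ozone and from 2235 to 3440 in the controls, and none was at 0. Nearly all of that sum was PYK10, with means of 2021 with ozone and 2574 in the controls. The means of EXPA7 were 24.0 and 45.7, and those of EXPA18 were 26.6 and 39.2. Of 5 guard cell markers 3 had a probe set, with sums of 51.7 to 69.8 with ozone and 47.0 to 102.9 in the controls. FMA, the only one tested, had -0.34 and did not pass. The part of the root markers in the lower signals of GSTU20, GSTU26 and GSTU27 was not tested.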

How the data were processed

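The 6 ATH1 arrays were grouped and numbered from the sample titles. The deposited intensity values are MAS5 signals on a linear scale, per the submitters' processing notes, which give no version. On each array the mean of the deposited signals, trimmed by 2% at both ends, is alike, so arrays had been scaled. Zeros (95) took the smallest positive signal of their array, and log2 was taken with no pseudocount. The 64 control probe sets and those under the 40th percentile of mean log2 signal were dropped, leaving 13648 for limma 3.58.1 in R 4.3.3 (lmFit, eBayes with a trend, two-sided). The Benjamini-Hochberg adjustment ran over all of these, and an adjusted p given with no setting is from this fit. Folds are ozone over control. Separate cultures are not stated, so the spread between samples may be technical.

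Genes were named from the platform annotation, in which 13513 probe sets have 1 gene, 503 several and 8730 none listed here. RefSeq (TAIR10.1), matched by 13436, gave names and gene order. The brightest probe set stood for a gene, and near-identical copies may share signal. The text names the 7 GSTU genes, tested members of 8 lists, neighbours by position and the 2 genes most like GSTU25 and GSTU26. Members and lists were chosen with earlier results of these data known.

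Same-numbered arrays deviated together from their group means (r = 0.747, 0.374 and 0.439 for replicates 1, 2 and 3, over all tested probe sets), so the number was read as pairing them. Ozone replicate 3 went with control replicate 2 about as well (0.413), and ozone replicate 2 with control replicate 3 (0.368), so it is mainly replicate 1 that stands apart. The 18 alternatives changed the scaling (quantile, median), the pseudocount (16, 64), the filter (none, 60th percentile), eBayes (no trend, robust), the block or the arrays used. Of these, the block with another scaling and the fit without replicate 1 were added after seeing the data. The code was checked on simulated data.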

Additional observations from a re-analysis of the deposited data

Results flagged for a closer look

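The windows around the tau-class groups held 17 probe sets too dim for the comparison. All ozone arrays lay above all control arrays in 3 of them and below in 1, beside 7.08% and 13.1% of the 9098 probe sets below the filter. GSTU15, in the group of GSTU16, had a log2 difference of 1.48, with a mean of 8.67 ± 1.53 with ozone and 3.53 ± 2.40 in the controls (SD, n = 3 each), and a limma adjusted p of 0.107 without the filter. AT1G17230, near GSTU26, had 0.49, and AT1G78410, near GSTU19, had 6.40, where a fold against controls this dim is imprecise. The lower one was AT1G10320, near GSTU18, with a mean of 15.0 ± 1.78 with ozone and 21.9 ± 4.56 in the controls (SD, n = 3 each).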

How the results depend on the processing

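The log2 fold changes of the 7 genes kept their sign under all 18 alternatives, and GSTU25, GSTU26 and GSTU16 also kept their side of the threshold. With the replicate block GSTU18 (-0.523) and GSTU22 (0.738) passed and 6699 probe sets changed, against 3816. The block changed no other call among the 7 genes. With the block and quantile normalization GSTU18 had -0.51, GSTU22 had 0.723 and 6438 probe sets changed. With the block and median centring GSTU22 had 0.813, 6185 changed and GSTU18 did not pass. After quantile normalization GSTU20 had -0.564 and did not pass. Leaving out 1 array, or both arrays numbered 1, moved GSTU20 between -0.792 and -0.569, GSTU22 between 0.57 and 1.006 and GSTU27 between -0.88 and -0.657. It gave 2 to 5 called genes of the 7, and 2220 to 4823 changed probe sets. The 2 called without ozone replicate 2 were GSTU25 and GSTU26. Without control replicate 2 or 3 the changed probe sets were 2450 and 2355. The shift of GSTU25 against GSTU26 was 2.03 to 2.49 without 1 array, and that of GSTU22 against GSTU20 was 1.20 to 1.66. The latter had an exact permutation p of 0.2 after quantile normalization. Only the fits that leave arrays out use fewer arrays. The causes of the differences between settings were not tested.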
